A study of Mus musculus with 46 samples.

Results

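Peaks of histone acetylation, propionylation and butyrylation were examined at the 78 mouse genes for mitochondrial ribosomal proteins, of 21631 protein-coding genes in the gene table used (GRCm38.p6). The 78 genes are all protein-coding genes whose symbol starts with Mrpl or Mrps followed by a digit. Of these, 49 carry the Mrpl prefix of the large subunit and 29 the Mrps prefix of the small subunit. For each gene, the bases covered by peaks were counted in a 5000-bp window, 2.5 kb each side of the better covered end of the gene, in each of 38 deposited peak lists.

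Livers came from female mice of the FVB background at 11 weeks of age, on a standard chow diet. PA mice, a model of propionic acidemia, were Pcca-/- animals with a hypomorphic A138T form of the alpha subunit of propionyl-CoA carboxylase, and were compared with wild-type (WT) mice. Native ChIP-seq, in which chromatin is cut with micrococcal nuclease without crosslinking, was run with 9 antibodies in 2 PA and 2 WT libraries each. Preparations labelled A served for H4K16bu (butyrylation), H4K16ac, H3K27ac and H3K9ac. Preparations labelled B served for the propionylation marks H4K16pr (Thermo), H4K12pr and H4K5pr and for H4K12ac and H4K5ac. A further H4K16pr antibody, made in-house, was used in 2 WT libraries only, and 8 input samples were not analysed here. Whole liver was used, so fewer marked cells of a type and less mark per cell cannot be told apart.

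Mitochondrial ribosomes translate the few proteins encoded by mitochondrial DNA, all of them subunits of the respiratory chain and ATP synthase. The ribosomal RNAs are made inside the organelle, whereas every protein of this ribosome is encoded in the nucleus, made in the cytosol and imported. Many of these proteins have a counterpart in bacterial ribosomes, and others were added during the evolution of mitochondria. Acetyl, propionyl and butyryl groups on histone H3 and H4 lysines mark open chromatin at the starts of active genes, and their donors are the coenzyme A esters of metabolism. Propionyl-CoA is the substrate that propionyl-CoA carboxylase removes.

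The 36 libraries with both genotypes listed 44068 to 70886 peaks in PA livers and 32358 to 63531 in WT livers. Sequencing depth is unknown, so a window with no peak is one where none was listed. The 6 hepatocyte markers examined (Alb, Apoa1, Ttr, Serpina1c, Cyp2e1 and Tat) had 4292 to 4965 covered bp on average over the 36 libraries. The 4 Kupffer cell markers had 152 to 278 bp, 4 stellate cell markers 107 to 1133 bp and 4 markers of sinusoidal endothelium 721 to 3917 bp, with Lyve1 the highest. Of 4 cholangiocyte markers, Krt7, Krt19 and Epcam had 0 bp and Sox9 had 2419 bp. Among lymphocyte markers, Cd3e had 0 bp, Ptprc 438 bp and Cd79a 2619 bp. All 4 heart muscle markers had 0 bp in every library.

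The promoters of 5 genes are shown because the results turn on them. Mrpl43 and Mrps36 passed the test between PA and WT livers, Mrps23 was covered at its annotated start but scarcely at its gene ends, and Mrps11 and Mrpl46 lie head to head and share one window of peaks. Each sequence runs 5′ to 3′ on the strand of its gene, from 250 bases before to 50 bases after the annotated start in RefSeq (GRCm38.p6). They lie at chr19:45006393-45006692 (Mrpl43, minus strand), chr13:100744610-100744909 (Mrps36, minus strand), chr11:88204138-88204437 (Mrps23, plus strand), chr7:78782881-78783180 (Mrps11, plus strand) and chr7:78783040-78783339 (Mrpl46, minus strand). Capitals mark matches to CCGGAAG, the core letters of an ETS-family site, or to AAGATGGCG, a YY1 site, on either strand.
Mrpl43: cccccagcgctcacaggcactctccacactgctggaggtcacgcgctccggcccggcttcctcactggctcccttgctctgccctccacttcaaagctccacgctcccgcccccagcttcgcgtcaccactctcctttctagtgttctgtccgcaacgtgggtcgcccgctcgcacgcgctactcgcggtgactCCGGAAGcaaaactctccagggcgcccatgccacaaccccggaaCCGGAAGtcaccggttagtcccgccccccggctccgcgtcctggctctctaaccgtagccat
Mrps36: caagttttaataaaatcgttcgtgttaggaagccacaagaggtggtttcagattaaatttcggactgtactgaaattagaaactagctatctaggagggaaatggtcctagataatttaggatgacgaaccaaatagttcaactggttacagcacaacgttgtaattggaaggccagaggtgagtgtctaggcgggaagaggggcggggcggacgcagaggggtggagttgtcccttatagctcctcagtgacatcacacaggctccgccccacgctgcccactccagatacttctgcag
Mrps23: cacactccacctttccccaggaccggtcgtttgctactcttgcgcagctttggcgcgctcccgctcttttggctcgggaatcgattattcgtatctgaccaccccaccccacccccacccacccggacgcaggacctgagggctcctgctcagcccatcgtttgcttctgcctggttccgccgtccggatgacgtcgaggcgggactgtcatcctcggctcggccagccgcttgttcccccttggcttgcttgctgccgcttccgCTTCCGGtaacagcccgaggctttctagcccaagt
Mrps11: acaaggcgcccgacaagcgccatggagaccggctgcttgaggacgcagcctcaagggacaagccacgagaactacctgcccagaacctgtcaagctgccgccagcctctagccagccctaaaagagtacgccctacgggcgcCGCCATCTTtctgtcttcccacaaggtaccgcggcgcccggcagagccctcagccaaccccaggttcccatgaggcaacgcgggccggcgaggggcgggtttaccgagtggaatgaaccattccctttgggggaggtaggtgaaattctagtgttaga
Mrpl46: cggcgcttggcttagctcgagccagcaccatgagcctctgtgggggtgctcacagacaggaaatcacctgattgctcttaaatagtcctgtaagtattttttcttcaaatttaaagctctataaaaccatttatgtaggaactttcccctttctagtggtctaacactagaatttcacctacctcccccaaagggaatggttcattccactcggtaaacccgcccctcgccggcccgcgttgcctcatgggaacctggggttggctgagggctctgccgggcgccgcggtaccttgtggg

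The Mrpl43 promoter held CCGGAAG at 2 places, and the Mrps23 promoter held it once on the opposite strand, after the start. The Mrps11 promoter held AAGATGGCG once on the opposite strand. The annotated starts of Mrps11 and Mrpl46 face each other with 41 bp between the genes, so 141 bases of the 300-bp promoters are the same DNA read from opposite strands. Neither of those motifs, nor the NRF1 site described next, was found in the Mrps36 or Mrpl46 promoter.

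RefSeq promoters were matched for 69 of the 78 genes. Where a gene had more than 1, the one with the highest mean coverage in these peak lists was used. This left 1 promoter for each of 17274 genes. CCGGAAG on either strand was in 25 of the 69 (36.2%), against 12.2% of all 17274 promoters so chosen. The letters GCGC, any base and TGCGC in a row, the site of NRF1, a regulator of nuclear genes for mitochondria, were in 13 (18.8%), against 6.68% of all promoters. AAGATGGCG was in 8 (11.6%), against 2.03% of all promoters. At least 1 of these 3 motifs was in 40 of the 69 promoters (58.0%), against 18.9% of all. CCAAT was at 39.1% in both, the GC box GGGCGG at 49.3% against 47.2%, and TATAAA at 5.80% against 13.3%. The median GC content was 58.3%, against 56.7% for all promoters, and the median number of CpG dinucleotides was 21, against 14. These shares describe letters only, and no factor binding was measured. In windows at these annotated starts, the median difference between PA and WT livers, in covered bp averaged over antibodies, was 468 bp for the 25 genes with CCGGAAG and 225 bp for the 44 without. It was 382 bp for the 13 with the NRF1 site and 300.4 bp for the 56 without, and 154 bp for the 8 with AAGATGGCG and 335 bp for the 61 without. No test was made of these splits.

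Peaks were listed at nearly all of these genes with every antibody. Between 70 and 78 of the 78 genes had a covered base in each of the 36 libraries (89.7% to 100%), against 48.9% to 64.1% of all genes. A covered base was found in all 36 libraries for 60 of the 78. The mean over the 36 libraries had a median of 2612 bp over the 78 genes, with a range from 174 bp at Mrps23 to 4566 bp at Mrpl52, against a median of 2368 bp over the 15225 genes tested, those that 2 or more of the 36 libraries covered. The ratio of the mean over these genes to the mean over all genes ran from 1.46 for H3K9ac to 1.93 for H4K16ac.

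**Figure D1:**
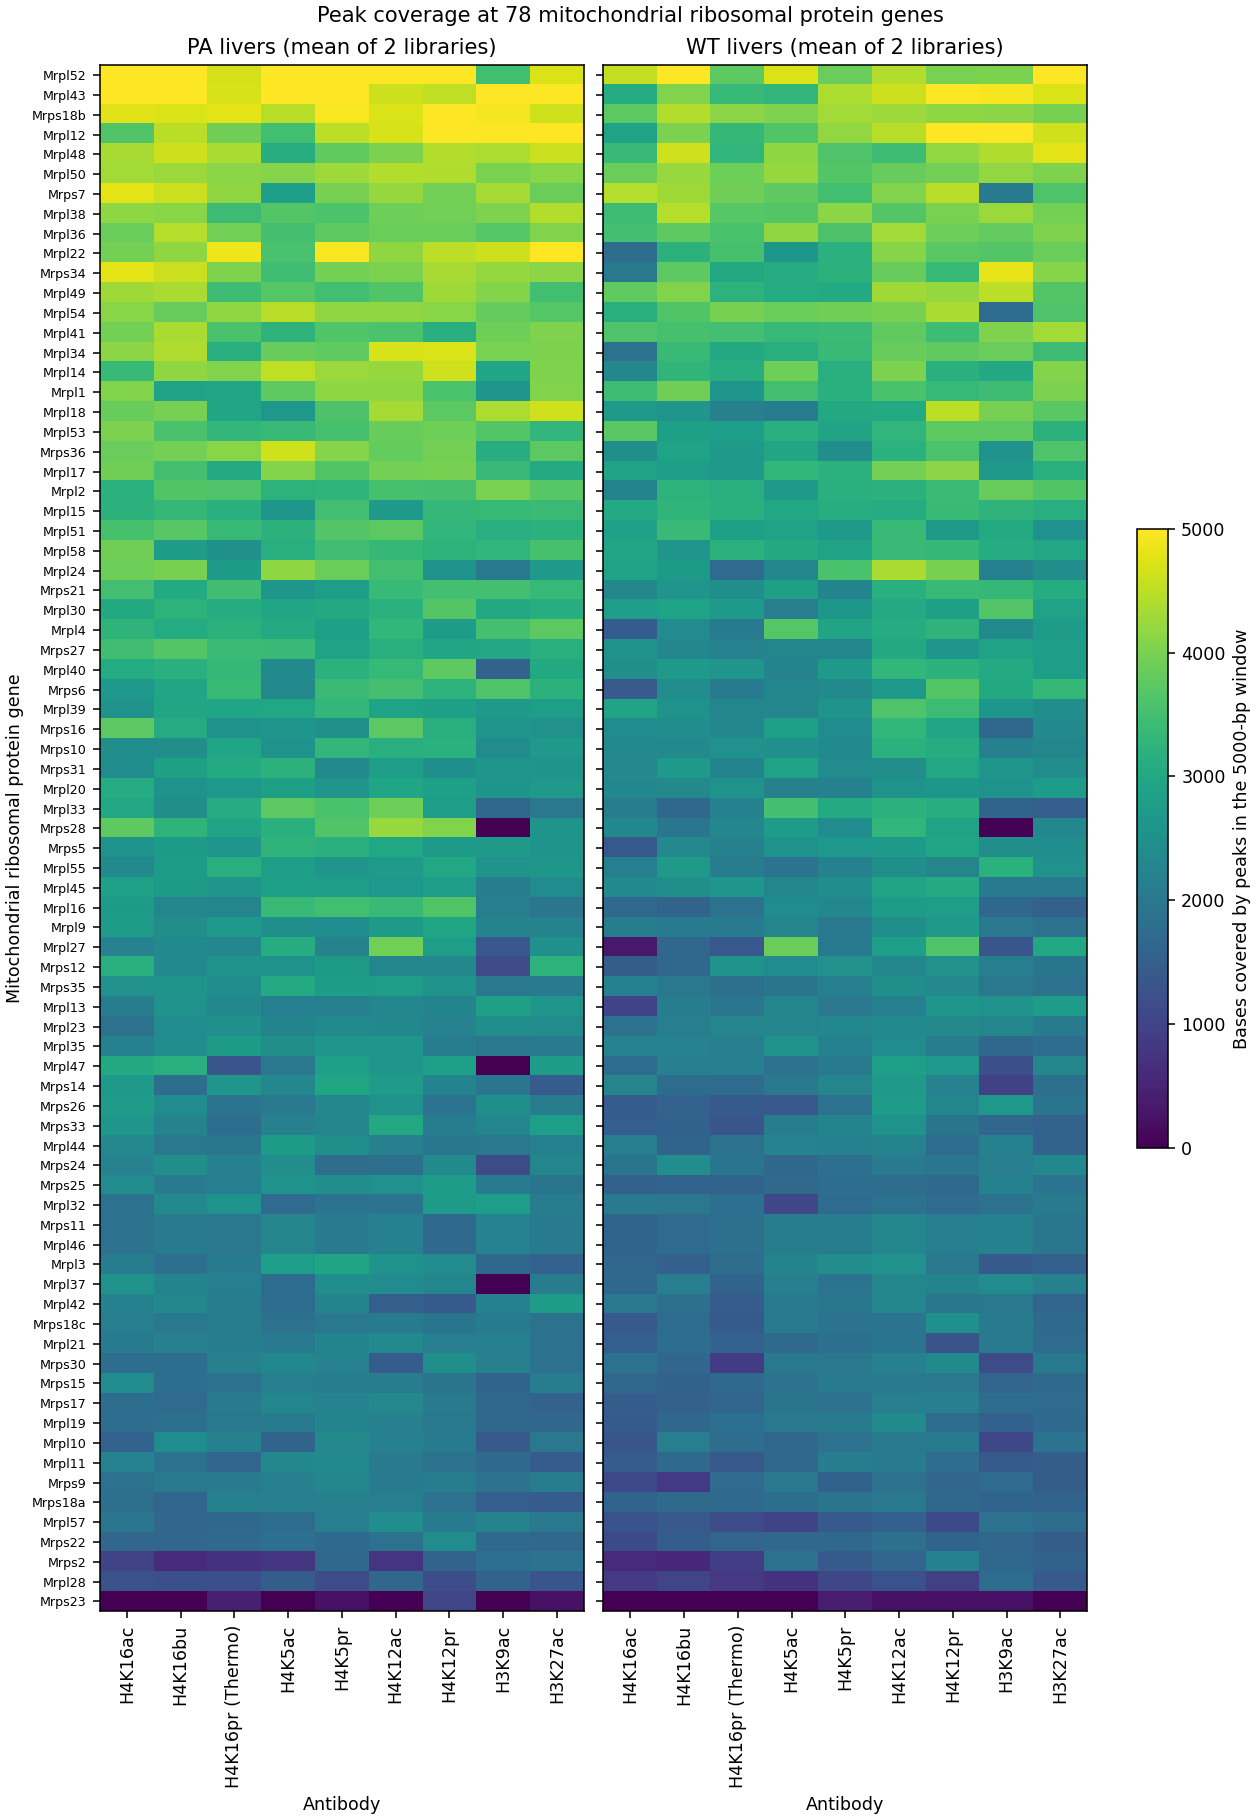
Covered bases (bp, colour, 0 to 5000) in the window of each of the 78 genes (rows, ordered by the mean over preparations) for each of the 9 antibodies (columns), as the mean of 2 PA libraries (left panel) and of 2 WT libraries (right panel). Mrpl52 and Mrpl43 stand at the top and Mrps2, Mrpl28 and Mrps23 at the bottom in both genotypes, and Mrpl37, Mrpl47 and Mrps28 are at 0 for H3K9ac in PA livers while their other antibodies are not.

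The 5 best covered genes were Mrpl52, Mrpl43, Mrps18b, Mrpl12 and Mrpl50. The 5 least covered in these windows were Mrps23, Mrpl28, Mrps2, Mrps22 and Mrpl57. Mrpl12, which forms the stalk that recruits translation factors, averaged 4424 ± 309 bp in PA livers and 4130.2 ± 217 bp in WT livers (SD, n = 4 preparations each). Mrpl10, the base of the same stalk, averaged 1962 ± 488 bp in PA livers and 1749 ± 386 bp in WT livers. The window of Mrpl12 is the one at the far end of the gene, and at its annotated start the mean was 3449 bp.

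Where the windows lay matters for the lowest values. The better covered end was within 1 kb of the annotated start for 57 of the 69 genes with one, and farther away for 12. Mrps23, a small-subunit protein specific to mitochondria, had 174 bp at the better end of the gene record, with a covered base in 9 of 36 libraries. Its annotated start lies 10282 bp from that end, and there the mean was 2602 bp with a covered base in 36 of 36 libraries. At that start Mrps23 had 2651, 2853, 3329 and 2679.8 bp in PA preparations 1A, 1B, 2A and 2B, against 2278, 2363, 2345 and 2357 bp in the WT preparations of the same labels. Every PA preparation was above every WT preparation, with a difference of 543 bp (SE 186) and a limma adjusted p of 0.115, above the threshold of 0.05. Mrpl12, Mrpl14, Mrpl27, Mrpl52 and Mrpl58 were measured at the end of the gene away from the start, and both ends of 31 of the 78 genes had a mean over 1000 bp.

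These genes lie close to other genes. The window of 42 of the 78 (53.8%) held the end of another protein-coding gene, against 23.6% of all genes. The median coverage was 2890.3 bp for those 42 and 2401 bp for the other 36. Several neighbours also encode mitochondrial proteins. Mrpl36 lies 20 bp from Ndufs6, a subunit of respiratory complex I, and Mrpl47 lies 301 bp from Ndufb5, another subunit of that complex. Mrps12 lies 135 bp from Sars2, the mitochondrial seryl-tRNA synthetase, and Mrpl43 overlaps Twnk, the helicase of mitochondrial DNA, by 780 bp. Peaks in such windows cannot be assigned to 1 of the 2 genes. Mrps11 and Mrpl46 share almost the whole window and had equal values in every preparation, so they count as 1 measurement: 1979, 1956, 2133 and 2141 bp in PA preparations 1A, 1B, 2A and 2B, against 1886.5, 2185, 1881 and 2026 bp in WT preparations. The groups overlapped, and the difference was 57.6 bp (SE 133).

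The first question was whether coverage differed between PA and WT livers. Most of the 78 genes had more covered bases in PA livers, as genes at large did, and this direction turned under quantile normalization. The 2 genes that passed the test were Mrpl43, of the large subunit, and Mrps36, whose protein belongs to a citric acid cycle enzyme. Neither passed under quantile normalization or with A and B averaged. No gene passed in the other direction, and no gene passed with 1 antibody alone.

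Averaged over the antibodies of each preparation and over the 78 genes, coverage was 2788, 3097, 2863 and 2759 bp in PA preparations 1A, 1B, 2A and 2B, and 2460.1, 2482, 2452 and 2764 bp in WT preparations 1A, 1B, 2A and 2B. The means were 2877 ± 153 bp in PA livers and 2539.6 ± 150.4 bp in WT livers (SD, n = 4 each). WT preparation 2B reached the level of PA preparation 2B, so the groups overlapped, and the other 3 WT preparations lay below all 4 PA preparations.

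Gene by gene, 2 of the 78 rose in PA livers (2.56%) and 0 fell, by limma with Benjamini-Hochberg adjustment over 15225 genes at 0.05. Of all genes tested, 4.51% rose and 0.256% fell. With the A and B values averaged by replicate number, which leaves 2 PA and 2 WT values, 0 of the 78 and 0 of all 15225 genes passed, and 16 of the 78 were at an unadjusted p under 0.05. The difference was positive for 76 genes and negative for 2, Mrps2 and Mrpl37, with a median of 298 bp, but under quantile normalization it was positive for 31 and negative for 47, with a median of -46.3 bp. Over all genes tested the median difference was 245 bp, and -16.6 bp under quantile normalization. All 4 PA preparations lay above all 4 WT preparations for 10 genes (12.8%), against 13.6% of all genes tested, and below them for 0, against 0.499%. At an unadjusted p under 0.05, 19 were higher in PA livers, against 28% of all genes tested, and 0 were lower, against 1.42%. PA libraries also listed more peaks. With equal numbers of peaks in every library, the 32358 widest of each, the 2 genes that rose were the same. The median difference was then 277 bp, against 245 bp for all genes tested. Peaks were kept by width, so this setting cannot remove a difference in peak width between the genotypes. Under quantile normalization 0 of the 78 passed, while 0.952% of all genes tested rose. With same-numbered preparations as a replicate block 0 of the 78 passed, against 0.762% of all genes, and without the coverage filter 0, against 1.14%.

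**Figure D2:**
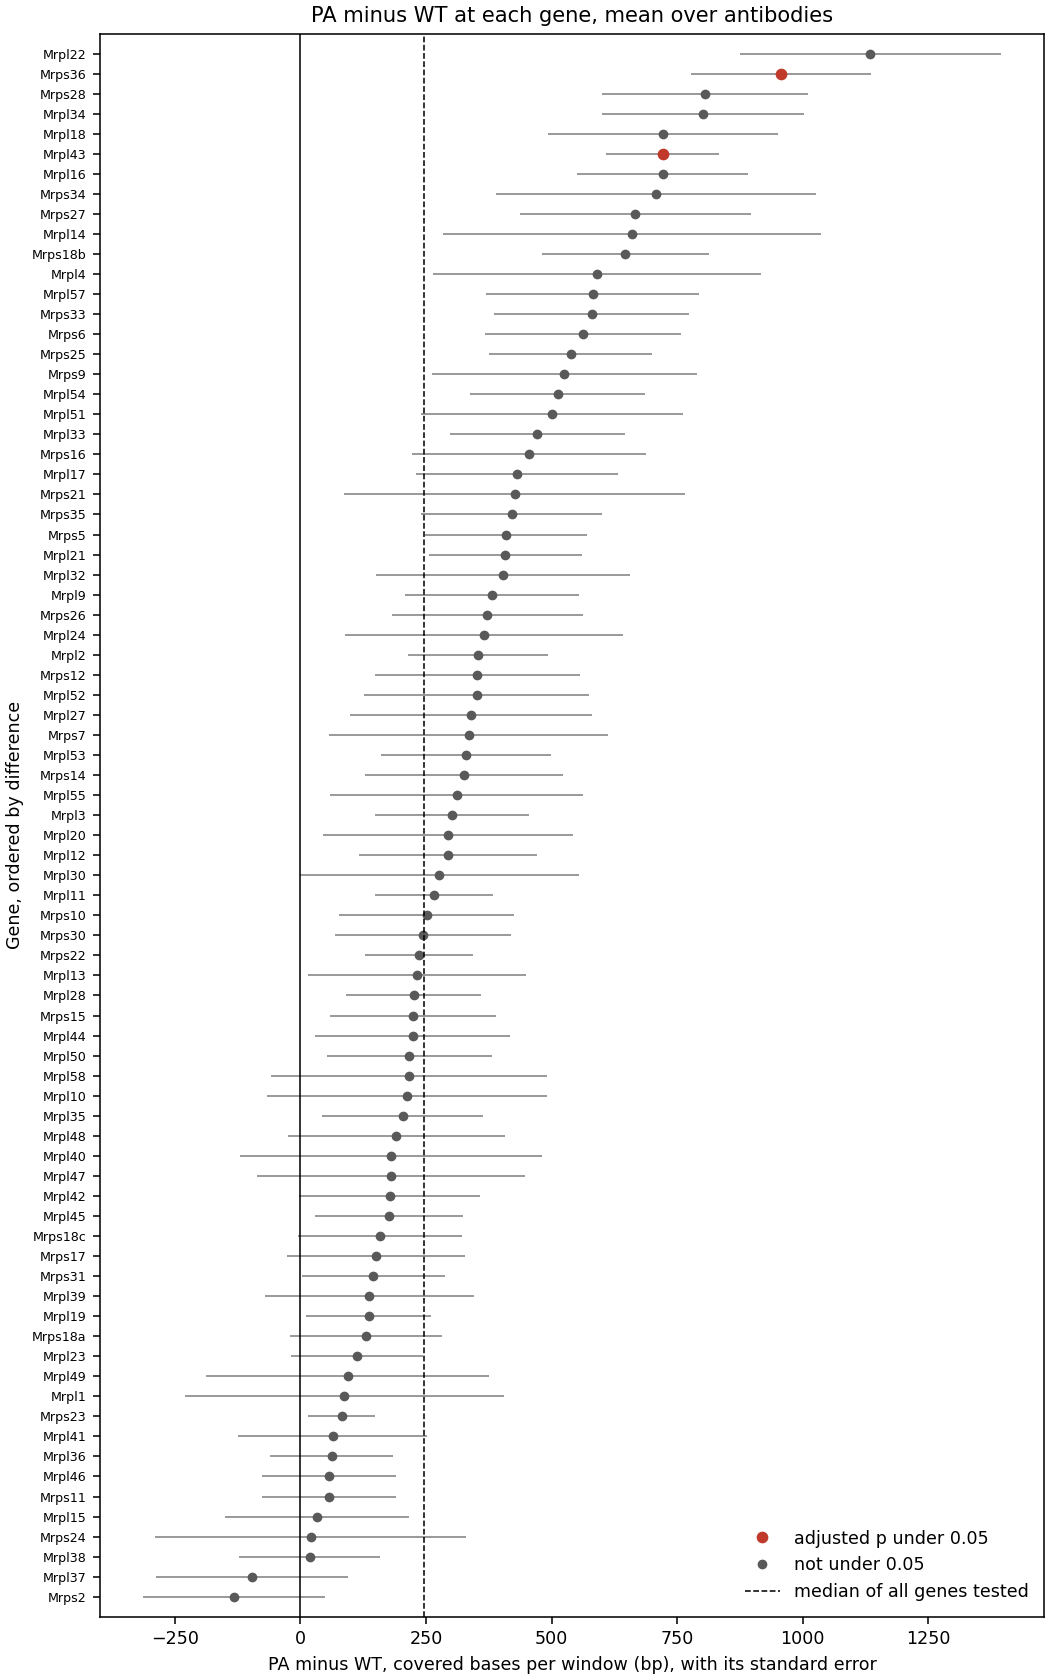
Difference in covered bp between PA and WT livers (PA minus WT, mean over antibodies, with its standard error) for each of the 78 genes, ordered by size, with the genes that passed the limma test in red and the median of all genes tested as a dashed line at 245 bp. In this scaling 76 of the points lie right of 0, and Mrpl43 and Mrps36 passed the test; under quantile normalization 31 of 78 lie right of 0.

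Mrpl43, a large-subunit protein specific to mitochondria, had 5000, 5000, 5000 and 4538 bp in PA preparations 1A, 1B, 2A and 2B, and 4224, 4051, 4169.8 and 4209 bp in WT preparations 1A, 1B, 2A and 2B. Every PA preparation lay above every WT preparation, and 3 of the 4 PA preparations were at the ceiling of the window. Coverage rose by 721 bp (SE 113, limma adjusted p = 0.0181) in PA livers, to 4885 ± 231 bp against 4163 ± 78.5 bp in WT livers (SD, n = 4 each). Values at the ceiling cannot differ from each other, so the SD, SE and p do not measure the full spread between PA preparations. The peak over the annotated start, whose width has no ceiling, had a median of 6722 bp over 18 PA libraries and 5132 bp over 18 WT libraries. With 1 preparation left out, the adjusted p ran from 0.0112 to 0.0607, and it passed 0.05 without PA preparation 1A (0.0564) or 2A (0.0607) or WT preparation 1B (0.0532) or 2A (0.0587). With A and B averaged it was 0.0971.

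Mrps36 was named as a small-subunit protein and is now known as KGD4, a subunit of the 2-oxoglutarate dehydrogenase complex of the citric acid cycle. Its window had 3712, 4183, 3618 and 4055 bp in PA preparations 1A, 1B, 2A and 2B, and 2557, 3046, 3228 and 2910.2 bp in WT preparations 1A, 1B, 2A and 2B. The groups did not overlap, and coverage rose by 957 bp (SE 179.8, limma adjusted p = 0.0289) to 3892 ± 270.4 bp in PA livers, against 2935 ± 284 bp in WT livers (SD, n = 4 each). No other gene has an end in this window. The peak over its start had a median width of 4036 bp in 18 PA libraries and 2818 bp in 18 WT libraries. With 1 preparation left out, the adjusted p ran from 0.0226 to 0.0856, and it stayed under 0.05 only without PA preparation 2B (0.0457) or WT preparation 2A (0.0226). It was over 0.05 without PA preparation 1A (0.0709), 1B (0.0856) or 2A (0.0699) or WT preparation 1A (0.0731), 1B (0.0826) or 2B (0.0562). Without H4K16ac, the limma adjusted p was 0.153 for Mrpl43 and 0.0841 for Mrps36, and with A and B averaged it was 0.105 for Mrps36.

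**Figure D3:**
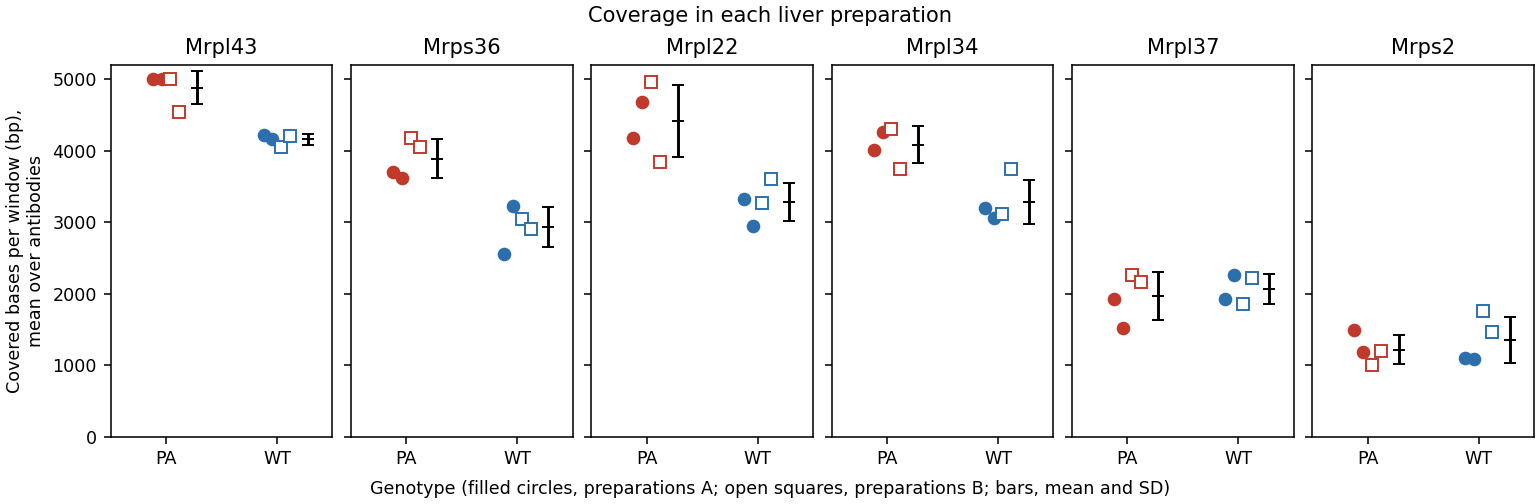
Covered bp per window (mean over antibodies) in each preparation for the 2 genes that passed the test (Mrpl43 and Mrps36), 2 with large differences that did not (Mrpl22 and Mrpl34) and the 2 with negative differences (Mrpl37 and Mrps2), with PA left of WT, preparations A as filled circles, preparations B as open squares, and bars for mean and SD. PA and WT points are apart for the first 4 genes and overlap for the last 2.

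The largest difference among the 78 genes was that of Mrpl22, a large-subunit protein that lines the peptide exit tunnel, and it did not pass the test. It had 4177, 4970, 4689 and 3851 bp in PA preparations 1A, 1B, 2A and 2B, and 3325, 3269, 2952 and 3604 bp in WT preparations 1A, 1B, 2A and 2B. The groups did not overlap, and the difference was 1134 bp (SE 260.4, limma adjusted p = 0.0505). The peak over its annotated start was wider than 4500 bp in 11 of 18 PA libraries and in 1 of 18 WT libraries, with median widths of 4888 and 1138 bp. That width limit was chosen after the values were seen. In the window at that start, coverage averaged 3023 bp in PA preparations and 2110 bp in WT preparations. The covered bases thus differed less than the widths, and part of the WT coverage lay outside the peak over the start. An end of Gemin5 lies in the same window.

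Mrpl34, a short protein of the large subunit, had 4015, 4307, 4268 and 3752 bp in PA preparations 1A, 1B, 2A and 2B, and 3208, 3120.2, 3064 and 3745 bp in WT preparations 1A, 1B, 2A and 2B. PA lay above WT throughout, WT preparation 2B only just below PA preparation 2B, and the adjusted p in limma was 0.0600. Mrps28 differed by 805 bp (SE 206, limma adjusted p = 0.0621) and Mrpl18 by 722 bp (SE 229, limma adjusted p = 0.0952), and their PA and WT ranges overlapped. Without PA preparation 2B, Mrpl16, Mrpl22 and Mrpl34 joined Mrpl43 and Mrps36 among the genes that passed, so that 5 of the 78 rose.

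The 2 negative differences were within the spread of the preparations. Mrps2, a small-subunit protein, had 1498, 1004, 1181 and 1207 bp in PA preparations 1A, 1B, 2A and 2B, and 1102, 1763, 1089 and 1463 bp in WT preparations 1A, 1B, 2A and 2B. PA was higher in both A preparations and lower in both B preparations, and the overall difference was -132 bp (SE 182). This window, with a mean of 1296 bp, lies 2115 bp from the annotated start of Mrps2. At that start the mean was 1999 bp and the difference -25.2 bp (SE 217). Mrpl37, a large-subunit protein specific to mitochondria, differed by -96.0 bp (SE 191), and by 243 bp when H3K9ac was left out.

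The genes given whatever their values did not pass the test either. At the stalk and the factor-binding site, Mrpl12 differed by 294 bp (SE 177), Mrpl10 by 213 bp (SE 279) and Mrpl11 by 266 bp (SE 117). Mrpl11 ran from 1706 to 2051 bp in PA preparations and from 1501 to 1864 bp in WT preparations, so the groups overlapped. Mrps12, at the decoding site, ran from 2161 to 2801 bp in PA preparations and from 1766.5 to 2482 bp in WT preparations. Mrpl58, a peptidyl-tRNA hydrolase that frees stalled ribosomes, ran from 2603 to 3712 bp in PA preparations and from 2824.5 to 3274 bp in WT preparations.

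Mammals have 3 paralogues of the S18 protein. Mrps18b, in the small subunit, had 4615, 4899.8, 4909 and 4668 bp in PA preparations 1A, 1B, 2A and 2B, and 4016, 3805, 4121 and 4563 bp in WT preparations 1A, 1B, 2A and 2B. Its groups did not overlap, with a difference of 647 bp (SE 167, limma adjusted p = 0.0631). Mrps18c, which takes the place of the bacterial S18, differed by 158 bp (SE 163), and Mrps18a, which despite its symbol sits in the large subunit, by 131 bp (SE 150.4). The ranges of both overlapped between genotypes. Whether the 3 paralogues differ from each other in response was not tested.

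By origin, 0 of 46 genes with a bacterial counterpart and 2 of 31 classed as specific to mitochondria rose, against 4.51% of all genes tested. One of the 2 is Mrps36, which is counted here by its symbol. The median differences were 318 and 223 bp, and by limma 10 and 9 genes were higher in PA livers at an unadjusted p under 0.05, against 28% of all genes tested. No test was made between the classes. Mrps30 was placed in neither class. By symbol, 1 of 49 Mrpl genes and 1 of 29 Mrps genes (Mrps36) rose, with median differences of 277 and 352 bp. The ribosome works with other nuclear-encoded proteins of mitochondrial translation, which were listed as well, and their counts stand against the same 4.51% of all genes that rose and 28% that were higher at an unadjusted p under 0.05. Among 22 genes of ribosome assembly, 2 rose. Mtg2, a GTPase, averaged 3069 ± 148 bp in PA livers and 2358 ± 76.0 bp in WT livers (SD, n = 4 each; limma adjusted p = 0.0329). Rcc1l, of the module that makes pseudouridine in mitochondrial RNA, averaged 3926 ± 364 bp in PA livers and 2532 ± 564 bp in WT livers (SD, n = 4 each; limma adjusted p = 0.0302). Among 14 translation factors and mRNA-binding proteins, 1 rose: Tufm, the elongation factor that delivers tRNA, with 3372 ± 248 bp in PA livers and 2588 ± 157 bp in WT livers (SD, n = 4 each; limma adjusted p = 0.0469). None of the 22 genes for aminoacyl-tRNA synthesis or of the 6 further genes listed with the mitochondrial ribosome passed by limma. Of these, 6 and 2 were higher at an unadjusted p under 0.05. Sars2 in the first of these lists shares the window of Mrps12. Among 14 genes of mitochondrial transcription and its control, 1 rose: Ppargc1a, a coactivator of mitochondrial biogenesis, with 624 ± 231 bp in PA livers and 25 ± 50 bp in WT livers (SD, n = 4 each; limma adjusted p = 0.0304). The WT value of Ppargc1a was near the floor of 0 bp. Its coverage came almost only from PA libraries, through which it also met the filter on covered libraries, so this p-value is only descriptive. Among 81 cytosolic ribosomal protein genes, 79 were tested and 2 rose (2.53%), with a median difference of 425 bp. At an unadjusted p under 0.05 by limma, 32 of these 79 were higher in PA livers, and 19 of the 78 mitochondrial ones. By the same measure 7 of the 22 assembly genes, 6 of the 14 translation factors and 7 of the 14 transcription genes were higher. No test was made between these lists.

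Antibody by antibody, the mean over the 78 genes differed most for H4K16ac. It was 2917 and 2964 bp in the PA libraries, against 2311 and 2082 bp in the WT libraries, a difference of 744 bp. The WT library at 2082 bp had the fewest peaks of the 36 (32358). H4K16pr (Thermo) differed by 497 bp, H4K5pr by 445 bp and H4K16bu by 429.6 bp. H4K5ac differed by 295 bp, H3K27ac by 224 bp, H4K12ac by 156 bp, H4K12pr by 131 bp and H3K9ac by 82.1 bp. Both PA libraries lay above both WT libraries in this mean for H4K16ac, H4K16bu, H4K16pr (Thermo), H4K5ac, H4K5pr and H3K27ac, and the genotypes overlapped for H4K12ac, H4K12pr and H3K9ac.

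**Figure D4:**
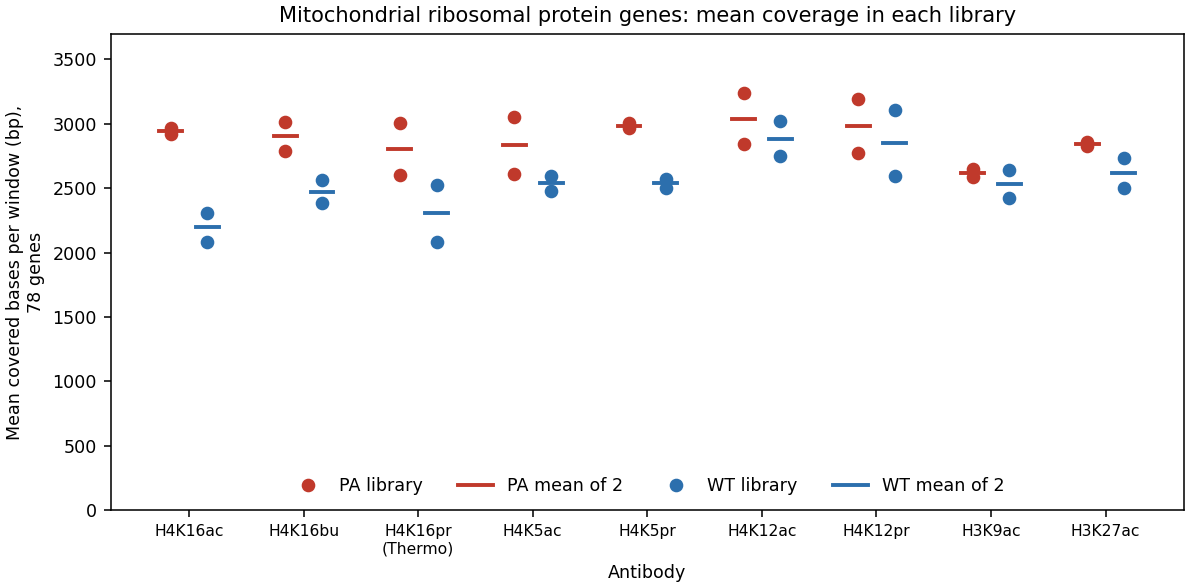
Mean covered bp over the 78 genes in each library (points) for the 9 antibodies, with PA left of WT and a bar at the mean of the 2 libraries. The widest gap is at H4K16ac, with 2917 and 2964 bp in PA and 2311 and 2082 bp in WT, and the PA and WT points are mixed for H4K12ac, H4K12pr and H3K9ac; the values are not rescaled between libraries.

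No gene of the 78 passed the limma test with any single antibody, where 2 libraries stood against 2. H3K9ac called 0.205% of all genes higher in PA livers and 0.148% lower, and each of the other 8 antibodies called 0% of all genes in either direction. Summed over the 9 antibodies, 61 of 693 tests of these genes had an unadjusted p under 0.05 and a higher value in PA livers (8.80%), against 10.8% for all genes, and 3 a lower one (0.433%), against 1.56%. Of the 61, 19 were with H4K5pr, where 16.7% of all genes tested were higher at that p. The smallest adjusted p was that of Mrpl22 with H4K5pr, at 0.0724. Mrpl22 had 5000 and 4887 bp in the PA libraries of H4K5pr, against 3165 and 3228 bp in the WT libraries.

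Libraries that did not overlap were counted as a description. With H4K16ac, both PA libraries lay above both WT libraries for 47 genes (60.3%), against 59.9% of all genes tested. With H4K16bu the count was 39 (50%), against 36.6%, with H4K16pr (Thermo) 39 (50%), against 44.3%, and with H4K5pr 42 (53.8%), against 48.7%. With H4K5ac and H3K27ac it was 24 each (30.8%), against 32.6% and 29.4%, and with H3K9ac 19 (24.4%), against 25.9%. With H4K12ac it was 13 (16.7%), against 28.2%, and with H4K12pr 14 (17.9%), against 25%. Median differences of the 78 genes followed those of all genes tested: 701 against 734 bp for H4K16ac, 348.5 against 235 bp for H4K16bu, 484.5 against 416 bp for H4K16pr (Thermo) and 418 against 336.5 bp for H4K5pr.

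A second question was whether the acyl mark differed from the acetyl mark of the same lysine. The mean over the 78 genes was 2761 bp for H4K5pr and 2684.5 bp for H4K5ac, 2917 bp for H4K12pr and 2962 bp for H4K12ac, and 2688 bp for H4K16bu and 2568 bp for H4K16ac. No gene of the 78 passed the test in any pair by limma. Of all genes tested, 0.116% were higher for H4K5pr and 0.0579% lower, 0% differed either way for H4K12pr, and 1.2% were higher for H4K16bu and 0.00762% lower. Both marks of a pair were measured in the same preparations, and with each preparation as a replicate block these counts became 0 in all 3 pairs, against 16 higher and 8 lower for H4K5pr and 158 higher and 1 lower for H4K16bu without the block. With the block 12 tests of the 78 genes were at an unadjusted p under 0.05, against 11 without it. At an unadjusted p under 0.05, 3 of the 78 were higher and 1 lower for H4K5pr, against 10.1% and 3.37% of all genes tested. For H4K12pr 1 was higher and 2 were lower, against 2.47% and 3.9%, and for H4K16bu 2 were higher and 2 lower, against 21.3% and 0.777%. The acyl mark was higher in all 4 preparations for 10 genes (12.8%) at H4K5, 3 (3.85%) at H4K12 and 9 (11.5%) at H4K16, against 15.7%, 6.33% and 24% of all genes tested. For H4K16bu minus H4K16ac the mean over the 78 genes was -125 bp in PA preparation 1A and 50.2 bp in PA preparation 2A. It was 73.9 bp in WT preparation 1A and 479.6 bp in WT preparation 2A, which stood apart. The H4K16ac library of WT preparation 2A listed 32358 peaks over 47.8 Mb. The other H4K16ac libraries listed 46402 to 60491 peaks over 74.8 to 116 Mb. The part of this library in the difference was not tested. Between these pairs of marks Mrpl27, a large-subunit protein, had the largest difference with an unadjusted p under 0.05 (limma adjusted p = 0.158). H4K5pr covered 2702 and 1779 bp in PA livers and 1825 and 2232 bp in WT livers. H4K5ac covered 3025 and 3181 bp in PA livers and 3694 and 4051 bp in WT livers. This window lies 8142 bp from the annotated start of Mrpl27 and holds an end of Xylt2. At that start the H4K5pr peak was 2053 and 1982 bp wide in PA livers and 1633 and 1584 bp in WT livers. The H4K5ac peak there was 2100 and 2008 bp wide in PA livers and 1374 and 1140 bp in WT livers.

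The peaks sat over the annotated starts. Between 62 and 69 of the 69 starts lay inside a peak in each of the 36 libraries, against 39.6% to 58.3% of all starts. The median width of the peak over the start was 2634 and 2788 bp in PA libraries of H4K16ac, against 2127 and 1904 bp in WT libraries. For H3K27ac it was 2593 and 2677 bp in PA libraries, against 2087 and 2166 bp in WT libraries. Peaks over these starts were narrower than those over all starts, where the mean of the library medians was 3134 bp in PA and 2279 bp in WT livers for H4K16ac and 3312 bp in PA and 2978 bp in WT livers for H3K27ac. Both PA libraries had wider peaks than both WT libraries with 6 of the 9 antibodies at these starts and with 7 of the 9 at all starts. Of the covered bases around the starts, 54.9% in PA and 53.3% in WT livers lay downstream for H3K9ac, the highest share among the 9 antibodies in both genotypes, and 46.5% in PA and 45.5% in WT livers for H4K5ac, the lowest in both. Over all genes the H3K9ac share was 56.6% and 56.8% in PA libraries and 56.9% in both WT libraries. The H4K5ac share over all genes was 47.7% and 45.7% in PA libraries and 48.6% and 49.0% in WT libraries.

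**Figure D5:**
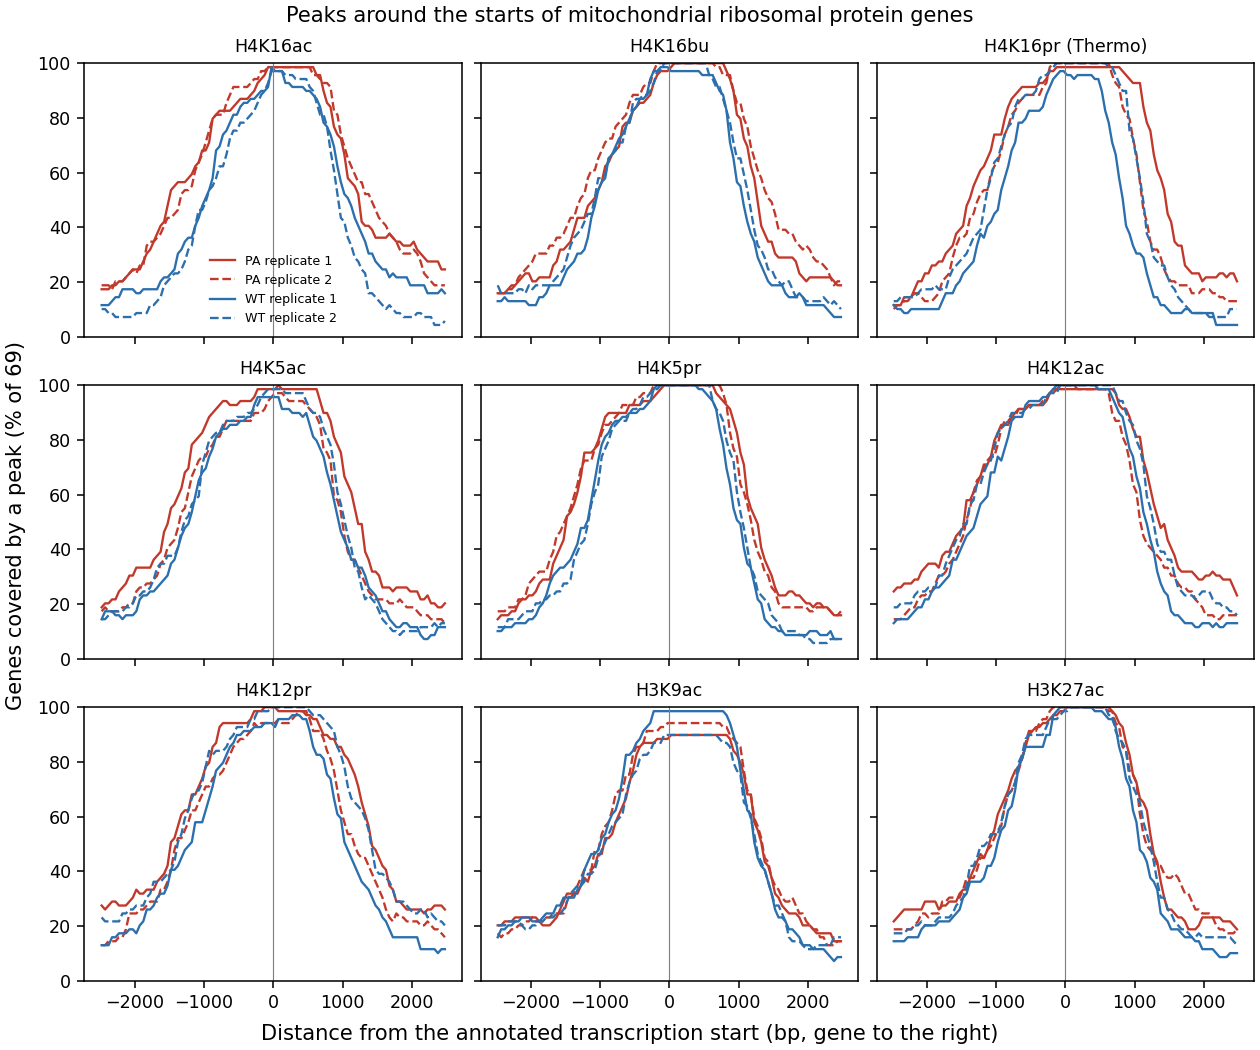
Share of the 69 genes with an annotated start (%) covered by a peak at each distance from the start (bp, 50-bp steps, gene body to the right), 1 panel per antibody, with PA libraries in red and WT libraries in blue, replicate 1 solid and replicate 2 dashed. At the start the curves reach 88.4% to 100%, and at the edges they fall to between 4.35% and 27.5%; just after the start, H3K9ac covers 89.9% and 94.2% of the genes in PA libraries and 98.6% and 89.9% in WT libraries.

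Some windows had no peak listed with 1 antibody alone, and among the 78 genes H3K9ac had the most of them. Of 70 genes covered in all 32 libraries of the other 8 antibodies, 10 had 0 bp in at least 1 H3K9ac library (14.3%), against 8.42% of 9294 genes of the same kind. They were Mrpl10, Mrpl32, Mrpl37, Mrpl40, Mrpl54, Mrps7, Mrps12, Mrps14, Mrps24 and Mrps28, named because their values were seen. For H4K16ac the count was 3 of 63 (Mrpl13, Mrpl27 and Mrps34, 4.76%), against 9.86% of 9442 genes, so that over all genes the share was higher for H4K16ac than for H3K9ac. It was 1 of 61 for H4K12pr (Mrpl57) and for H4K16bu (Mrps9), and 0 of 60 for each of the other 5 antibodies. Mrps28 had 0 bp in all 4 H3K9ac libraries, with 2697 and 2471 bp in the PA libraries and 2444 and 2221 bp in the WT libraries of H3K27ac. Mrpl37 had 0 and 0 bp in the PA libraries of H3K9ac, against 2149 and 2656 bp in the WT libraries (limma adjusted p = 0.153). For the other 8 genes, the replicates of at least 1 genotype disagreed, with 0 bp in one and 1939 to 4365 bp among the covered ones. Mrps7, for instance, had 4365 and 4284 bp in the PA libraries, against 0 and 4172 bp in the WT libraries. Windows at 0 in H3K9ac numbered 12 over the 2 PA libraries and 10 over the 2 WT libraries.

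The in-house H4K16pr antibody could be compared with the Thermo antibody in WT livers only. The mean over the 78 genes was 1658 bp in replicate 1 and 571 bp in replicate 2 with the in-house antibody, against 2086 and 2525 bp with the Thermo antibody. A covered base was found at 75 and 51 genes with the in-house antibody, against 76 and 77 with the Thermo antibody. The in-house value was the lower one for 64 genes in replicate 1 and for 77 in replicate 2. Over all genes the means were 839 and 333 bp with the in-house antibody, against 1249.8 and 1518 bp with the Thermo antibody.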

How the data were processed

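The deposited files list peaks of 1 library each by chromosome, start and end, in base pairs on GRCm38 (mm10), and the authors gave no count, score or p-value per peak. The tools named in the submitters' processing notes are HOMER 4.10, Bowtie2 2.5.1, cutadapt 3.5, bedtools 2.31.0, R 4.1.2 and SAMtools 1.17. The sources used here give no peak-calling settings, use of the inputs or sequencing depth. No peak was shorter than 500 bp, and 20 rows on chromosome Y were left out. All 46 samples were grouped by genotype, antibody, preparation letter and replicate number from their titles.

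The gene table, RefSeq for GRCm38.p6, gives no strand, so the end of each gene with the higher mean over the 38 lists was used. Overlapping peaks were merged before bases were counted. Pooled values are means over the antibodies of a preparation (4 PA and 4 WT), fitted with limma 3.58.1 in R 4.3.3 with a trend, genotype and preparation letter. Single antibodies were fitted on genotype, and pairs of marks on genotype and mark. Genes that 2 or more libraries of a fit covered were kept, p-values were adjusted by Benjamini-Hochberg over all of them, and tests are two-sided. The series describes 2 biological replicates. Preparations A and B of one number may or may not be the same liver; if they are, the 4 preparations of a genotype are not independent, n is 2, and p-values over 4 are too small; with A and B averaged, 0 genes passed. Deviations of A and B of one number correlated at 0.0591 (PA) and 0.173 (WT) across genes. Same-numbered PA and WT preparations did not deviate together (r = 0.00372 for A and -0.103 for B across genes), so the numbers were not taken as pairs. Both marks of a pair came from the same preparation, and their deviations correlated at 0.249 to 0.329 for H4K5 and H4K12 and at -0.00121 (PA) and 0.199 (WT) for H4K16.

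Members and lists were chosen with earlier results of these data known. Genes named were those that passed the pooled test, the 5 largest differences each way, the 5 highest and 5 lowest covered, called genes of the lists, and Mrpl10, Mrpl11, Mrpl12, Mrpl58, Mrps12, Mrps18a, Mrps18b and Mrps18c; others are said to be named after their values were seen or illustrate windows and neighbours. Only 2 differences were negative. The pooled fit was run on simulated independent preparations in which some genes were shifted by known amounts. The simulation had no window limits, no shift shared by all genes and no link between A and B. It therefore cannot vouch for the calls made here. Other steps ran in Python 3.11.15 with pandas 2.3.3, numpy 2.4.6 and matplotlib 3.10.9. Alternatives were other windows, normalization, filters, blocks, subsets of antibodies and leaving out each preparation.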

Additional observations from a re-analysis of the deposited data

Results flagged for a closer look

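In 46 groups of 4 preparations, 3 had 1 preparation far from the others by the gap to its nearest neighbour over the range of the group, and chance gives about 1 in 20. Mrpl43 had 4538.2 bp in PA preparation 2B, while the other 3 PA preparations were at the ceiling of 5000 bp. Mrpl57, a large-subunit protein specific to mitochondria, had 868.4 bp in WT preparation 1B, against 1547.8 to 1621.6 bp in the other WT preparations. The mean over the 78 genes was 2764.4 bp in WT preparation 2B, against 2451.6 to 2482.3 bp in the other WT preparations. The part of these preparations in the results was not tested beyond leaving each out in turn.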

How the results depend on the processing

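The pooled count of 2 genes higher in PA livers was 2 at annotated starts and 2 with equal numbers of peaks, the widest of each library. It was 2 without the preparation letter term and 3 in limma without the trend. It was 5 with windows of 5 kb each side, 6 with both gene ends averaged, 4 without H3K9ac and 1 with acyl marks only. It was 0 under quantile normalization, without a filter, with A and B averaged, with preparation A or B antibodies only, without H4K16ac and with acetyl marks only. In these fits 5 to 22 of the genes were at an unadjusted p under 0.05 by limma. With the replicate block it was 0, with 15 at an unadjusted p under 0.05, and no member passed with the block in single antibodies or pairs of marks either. With numbers crossed, added after seeing the data, it was 5. Leaving out each preparation gave 0 to 5. The cause of these shifts was not tested. For all genes the count of those higher was 116 of 15225 with the block, against 686 without it, and 0 with A and B averaged. With H3K9ac, 0 genes passed with the block, against 29 higher and 21 lower without it. For pairs of marks the block left 0 calls, against 16 higher and 8 lower at H4K5 and 158 higher and 1 lower at H4K16.

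The count over single antibodies was 0 in all alternatives except without WT replicate 1 (5) and without WT replicate 2 (5), a range of 0 to 5. It was 0 in every alternative for the pairs of marks. The median difference of the 78 genes ran from 224 to 418 bp, except for -46.3 bp under quantile normalization.

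Among named genes, quantile normalization reversed Mrpl10 (-94.8 bp), Mrpl11 (-37.7 bp), Mrpl12 (-55.6 bp), Mrpl28 (-47.4 bp), Mrpl50 (-166 bp), Mrpl58 (-188 bp), Mrps12 (-18.0 bp), Mrps18a (-179 bp), Mrps18c (-161 bp), Mrps22 (-47.8 bp) and Mrps23 (-0.43 bp). Mrpl37 turned positive with preparation B antibodies only (176 bp), without H3K9ac (243 bp) and with acyl marks only (261 bp), and Mrps2 with preparation A antibodies only (243.8 bp). Leaving out each preparation gave -224 to 41.1 bp for Mrpl37, positive without PA_A replicate 2 (41.1 bp) or WT_A replicate 2 (27.3 bp), -270.3 to 3.33 bp for Mrps2, positive without WT_B replicate 1, and -22.0 to 438 bp for Mrpl10, negative without PA_A replicate 1. Mrpl50 was at -156 bp with windows of 5 kb each side, Mrpl52 at -85.6 bp and Mrps18a at -33.4 bp with preparation A antibodies only, Mrps18a at -433 bp with both ends averaged, Mrpl58 at -31.3 bp with preparation B antibodies only and Mrps23 at -62.5 bp with acetyl marks only. None of these passed the test.

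Read depth is unknown, so no counting interval is given, and a window at 5000 bp cannot gain coverage.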
